A study of Mus musculus with 9 samples.

Results

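The 31 genes described here carry cholesterol through the liver cell. They are 18 enzymes of its synthesis, 4 genes that control the transcription factor Srebf2, 3 genes of uptake and intracellular transport, and 6 genes of export, esterification and their regulation. They were chosen by name, and a gene counted as measured where a probe set of the array is annotated with exactly that symbol. This held for 29 of the 31, among 19938 genes measured that way, and left 17 synthesis genes, 4 control genes, 3 uptake and transport genes and 5 export genes. Acat2 and Soat2 were not analysed here.

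Expression was compared in whole liver of 3 groups of male mice, with 3 arrays each. OB-TUDCA mice were ob/ob (B6.V-Lepob/J, which lack working leptin and become obese) and received tauroursodeoxycholic acid (TUDCA), a taurine-conjugated bile acid, by gavage at 500 mg/kg 2 times a day for 3 weeks. OB-control mice had the same genotype and strain and received tap water on that schedule, and N-control mice were wildtype C57BL/6J, also given tap water. All were obtained at 6 weeks of age, ate normal chow and were killed 8 h after food was removed. The ob/ob mutation is carried in every cell from birth, so obesity and leptin deficiency cannot be told apart in these groups, and there was no lean group on TUDCA.

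Signals are log2 values per gene, so a difference of 1 is a doubling. Errors are SD beside group means and limma's SE beside differences. Array medians lay between 4.50 and 4.58, and arrays of a group correlated at 0.981 to 0.990 across probe sets. The mean of 7 hepatocyte markers was high on every array (12.79 to 12.83 in OB-TUDCA, 12.72 to 12.87 in OB-control and 12.90 to 12.96 in N-control livers). The 17 measured markers of pancreatic acinar cells averaged 10.62 on N-control replicate 2 and 3.84 to 4.31 on the other 8 arrays, and all 17 were highest on that array, so calls and medians against N-control are also given without it. Mouse numbers limit the precision: an exact permutation test of 3 arrays against 3 cannot give a p below 0.1.

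Cholesterol is built from acetyl-CoA by way of mevalonate, the isoprenoid diphosphates, squalene and lanosterol, and then by removal of methyl groups and shifting of double bonds in the sterol ring. When the endoplasmic reticulum is low in sterol, the escort protein Scap carries Srebf2 to the Golgi, where it is cut, and its released part enters the nucleus and turns on the genes of synthesis. When sterol is plentiful, Insig1 and Insig2 hold Scap back, while oxysterols activate the receptor Nr1h3 (LXR alpha), which drives the exporters Abca1, Abcg5 and Abcg8.

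Srebf2 is known to act at promoters together with the factors NF-Y and Sp1, so promoter letters of the members are shown before their signals. RefSeq start sites of assembly GRCm38.p6 gave windows of 300 bases, 250 before and 50 after a start, for 24 of the 31 members and for 15 of the 18 synthesis enzymes. No window was at hand for Fdps, Fdft1, Sqle, Scarb1, Npc1, Stard4 and Soat2. The motifs searched on both strands were CCAAT (the NF-Y box, ATTGG on the other strand), GGGCGG (the Sp1 box) and TCACNCCAC (a core of the sterol regulatory element). None of these motifs contains another.

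The NF-Y box stood in 14 of 15 synthesis genes (93.3%) and 6 of 9 other members (66.7%), against 41.1% of all 27025 genes with a window. Counted by window, this was 14 of 18 synthesis windows (77.8%), 6 of 14 windows of other members (42.9%) and 37.4% of all 32851 windows. The Sp1 box stood in 14 of 15 synthesis genes (93.3%), 5 of 9 other members (55.6%) and 38.2% of all genes. Counted by window, these shares were 83.3%, 50% and 35.7%. The sterol element core was found in 1 member, Hmgcs1, 137 bases before its start, and in 1.44% of all genes. A match describes letters only, and binding was not measured.

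Windows of 4 synthesis genes are printed as examples that hold more than 1 NF-Y box, as those of Mvk, Mvd, Hsd17b7, Ebp and Dhcr7 also do. In lean livers all 4 genes were highest on replicate 1 and lowest on replicate 3. The window that Abcg8 and Abcg5 share is printed because both transporters are read from it in opposite directions, from starts 110 bases apart. Capitals mark CCAAT or ATTGG and, in Hmgcs1, also the sterol element core.
Hmgcs1, chr13:119690101-119690400, plus strand: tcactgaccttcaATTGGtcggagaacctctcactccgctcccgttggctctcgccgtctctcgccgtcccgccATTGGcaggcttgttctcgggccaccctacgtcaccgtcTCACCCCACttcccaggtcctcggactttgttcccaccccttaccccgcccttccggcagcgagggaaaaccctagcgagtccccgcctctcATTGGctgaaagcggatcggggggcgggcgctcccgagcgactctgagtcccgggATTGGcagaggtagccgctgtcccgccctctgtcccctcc
Idi1, chr13:8885356-8885655, plus strand: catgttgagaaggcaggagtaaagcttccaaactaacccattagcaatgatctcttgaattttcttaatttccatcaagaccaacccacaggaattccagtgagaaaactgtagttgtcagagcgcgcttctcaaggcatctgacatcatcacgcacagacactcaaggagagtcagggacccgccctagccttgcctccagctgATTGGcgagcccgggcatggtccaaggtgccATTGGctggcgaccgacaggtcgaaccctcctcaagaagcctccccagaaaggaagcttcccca
Msmo1, chr8:64733529-64733828, minus strand: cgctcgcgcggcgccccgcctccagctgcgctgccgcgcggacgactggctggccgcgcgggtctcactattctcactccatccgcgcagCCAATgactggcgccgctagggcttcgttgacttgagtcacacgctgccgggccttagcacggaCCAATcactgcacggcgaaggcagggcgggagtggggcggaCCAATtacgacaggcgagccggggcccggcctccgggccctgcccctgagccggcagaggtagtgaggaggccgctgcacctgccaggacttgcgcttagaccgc
Nsdhl, chrX:72918271-72918570, plus strand: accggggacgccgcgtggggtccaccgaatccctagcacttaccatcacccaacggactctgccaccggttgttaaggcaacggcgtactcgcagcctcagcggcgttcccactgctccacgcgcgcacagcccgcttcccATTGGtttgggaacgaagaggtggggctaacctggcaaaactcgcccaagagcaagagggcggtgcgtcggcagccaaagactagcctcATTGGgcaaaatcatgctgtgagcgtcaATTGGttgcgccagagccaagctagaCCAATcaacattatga
Abcg8 and Abcg5, chr17:84682962-84683170, plus strand: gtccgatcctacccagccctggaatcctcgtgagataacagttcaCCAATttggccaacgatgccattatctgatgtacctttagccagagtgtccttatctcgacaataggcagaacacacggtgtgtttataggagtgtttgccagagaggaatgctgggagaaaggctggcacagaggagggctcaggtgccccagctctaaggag
Hmgcs1 and Nsdhl hold 4 boxes each, Msmo1 holds 3, and Idi1 holds a pair just upstream of its start.

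No member passed the adjusted threshold in any of the 3 comparisons, and the largest differences were lower signals of synthesis genes in both ob/ob groups than in N-control livers. The question of the first comparison was what TUDCA did in ob/ob liver. In OB-TUDCA against OB-control livers, limma called 0 of 29 members at an adjusted p under 0.05, where 0.301% of all genes were called. The smallest adjusted p was 0.12, for Tm7sf2. At an unadjusted p under 0.05, 1 member was higher (Tm7sf2; 6.26% of all genes were higher) and 1 was lower (Dhcr7; 5.72% of all genes). The median difference of the members was -0.17, beside 0.01 over all genes, and 20 of 29 means were lower in OB-TUDCA livers. Arrays did not overlap for 1 higher member, Tm7sf2 (7.26% of all genes), and for 4 lower members, Mvk, Fdft1, Sc5d and Nr1h3 (6.53% of all genes). Arrays of fewer mice separate more easily. Without OB-TUDCA replicate 3, 2 members were apart and higher (14.2% of all genes on the same arrays) and 11 apart and lower (10.8%). Without OB-control replicate 2, 12 members were apart in either direction (23.8% of all genes), and without replicate 3 of that group 8 were (23.9%).

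The second comparison asked how ob/ob liver differs from lean liver. In OB-control against N-control livers, limma called 0 of 29 members (0.948% of all genes were called), with a smallest adjusted p of 0.15 for Ebp. At an unadjusted p under 0.05, 1 member was higher, Nr1h3 (6.55% of all genes), and 6 were lower, Ebp, Cyp51, Scap, Idi1, Pmvk and Tm7sf2 (5.59% of all genes). The members' median difference was -0.21, beside 0.02 over all genes, and 21 of 29 means were lower in OB-control livers. Without N-control replicate 3 the median was -0.44, and without N-control replicate 1 it was -0.06, so these single lean mice set much of its size. Arrays were apart for 0 higher members (8.49% of all genes) and 2 lower members, Ebp and Scap (6.77% of all genes). Without N-control replicate 3, 3 members were apart and higher (14.6% of all genes on the same arrays) and 14 apart and lower (10.9%). Without OB-control replicates 1, 2 and 3 in turn, 5, 4 and 5 members were apart in either direction, beside 22.3%, 26.5% and 25.9% of all genes. Without N-control replicate 2, the array with acinar signal, 0 members were called and the median was -0.21. That fit called 0.336% of all genes, fewer than the 0.948% with all arrays. Hepatocyte markers averaged lower in OB-control than in N-control livers, with no overlap of the ranges given above, and their part in the result was not tested.

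The third comparison set treated ob/ob liver against lean liver, and it shares its arrays with the other comparisons. In OB-TUDCA against N-control livers, limma called 0 of 29 members (3.24% of all genes were called), and Scap came closest with an adjusted p of 0.0591. At an unadjusted p under 0.05, 0 members were higher (10.4% of all genes) and 9 were lower (8.15% of all genes). Those 9 were Scap, Idi1, Mvk, Sc5d, Msmo1, Dhcr7, Pmvk, Fdft1 and Ebp, of which all but Scap make sterols. The median difference was -0.47, beside 0.04 over all genes, and 22 of 29 means were lower in OB-TUDCA livers. No higher member had arrays apart (11.8% of all genes), while 7 lower members did: Mvk, Pmvk, Idi1, Sc5d, Dhcr7, Scap and Abcg8 (8.95% of all genes). Without N-control replicate 3, 2 members were apart and higher (18% of all genes on the same arrays) and 18 apart and lower (12.5%). In that fit limma called 5 members (2.51% of all genes were called), Mvk, Idi1, Fdft1, Msmo1 and Sc5d, at adjusted p of 0.0314 to 0.047. Their adjusted p over all alternatives lay between 0.0314 and 0.528. Without OB-TUDCA replicate 3, 14 members were apart and lower (12.7% of all genes). Without OB-TUDCA replicate 1 limma called Abca1 (difference 0.49, adjusted p 0.0451, range 0.0451 to 0.756), and 3.95% of all genes. That replicate was also the OB-TUDCA array with the lowest mean of 8 macrophage markers, 7.03 against 7.66 on both others, whose part in the result was not tested. Leaving out N-control replicate 2 gave 0 members called and a median of -0.48. That fit called 1.23% of all genes, fewer than the 3.24% with all arrays. Hepatocyte markers averaged lower in OB-TUDCA than in N-control livers too, again with ranges apart, and their part was not tested. In whole liver, fewer cells of a type and less RNA per cell cannot be told apart.

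**Figure D1:**
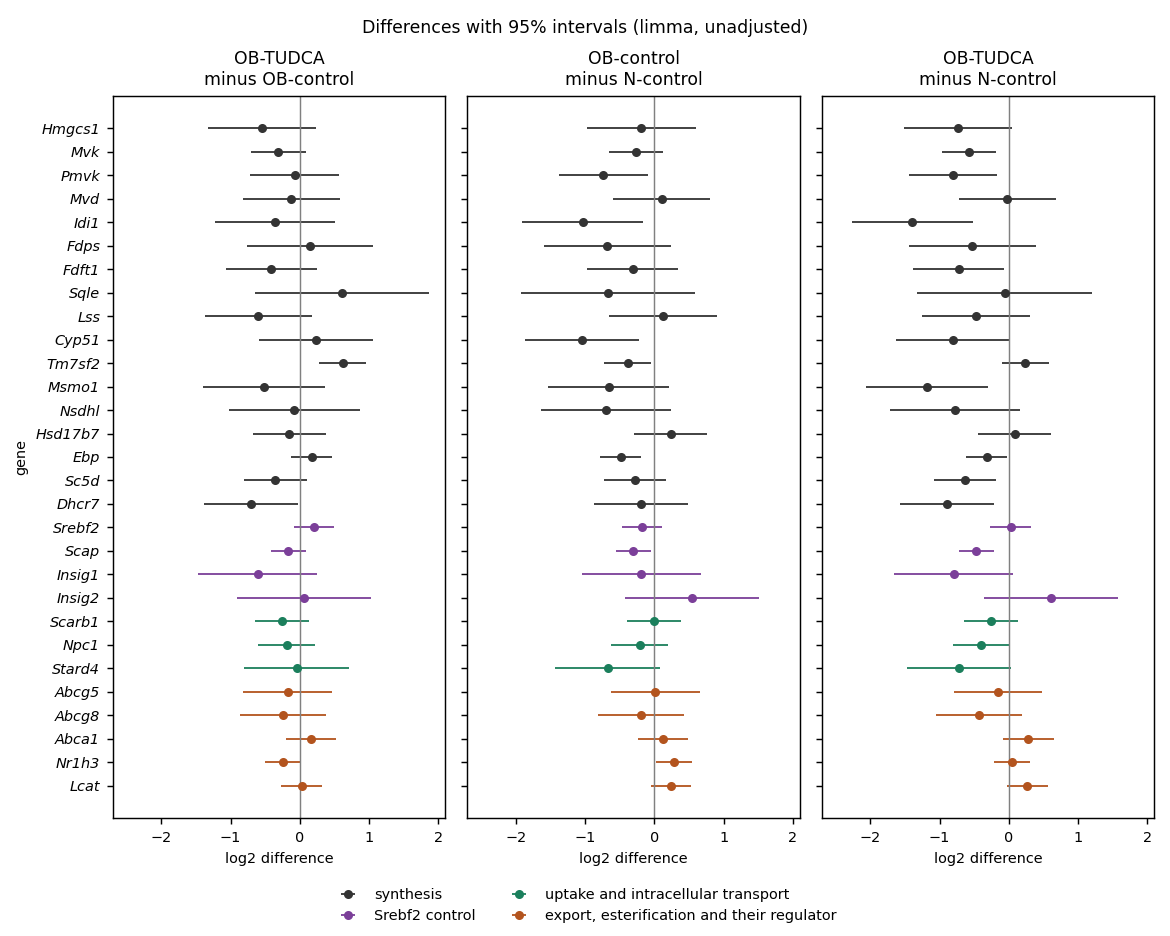
Log2 difference of each of the 29 genes (points) with its unadjusted 95% limma interval (lines), in 3 panels for OB-TUDCA minus OB-control, OB-control minus N-control and OB-TUDCA minus N-control, coloured by role. Most points lie left of 0 in the panels against N-control, with Idi1 at -1.39 and Msmo1 at -1.18 in the last panel.

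Hmgcs1, the enzyme that makes HMG-CoA at the head of the pathway, had signals of 8.86, 9.43 and 9.82 in OB-TUDCA, 10.33, 9.33 and 10.11 in OB-control, and 10.69, 10.07 and 9.58 in N-control livers. The groups overlapped, and OB-TUDCA replicate 1 was the lowest array of all. Its difference was -0.55 ± 0.35 (SE) in OB-TUDCA against OB-control (interval -1.33 to 0.23) and -0.74 ± 0.35 in OB-TUDCA against N-control livers (interval -1.52 to 0.04). These 95% intervals reach past 0 on the upper side and include a halving on the lower side.

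Mvk, the mevalonate kinase, averaged 6.29 ± 0.19 in OB-TUDCA, 6.60 ± 0.18 in OB-control and 6.87 ± 0.34 in N-control livers (SD, n = 3 each). All OB-TUDCA arrays lay below all arrays of either other group, though only just, with a highest of 6.46 against a lowest of 6.47 in each. The difference against N-control livers was -0.57 ± 0.17 (limma adjusted p = 0.12). Pmvk, which adds the second phosphate to mevalonate, read 6.82, 6.89 and 6.92 in OB-TUDCA, 7.08, 6.39 and 7.38 in OB-control, and 8.14, 7.80 and 7.11 in N-control livers. The OB-TUDCA arrays sat within 0.10 of each other and below every N-control array, while the OB-control arrays spread over 0.99. The difference against N-control livers was -0.81 ± 0.28 for OB-TUDCA (adjusted p = 0.171) and -0.73 ± 0.28 for OB-control (adjusted p = 0.335). Mvd, the decarboxylase that forms isopentenyl diphosphate, averaged 5.77 ± 0.15 in OB-TUDCA, 5.90 ± 0.59 in OB-control and 5.80 ± 0.53 in N-control livers, with no difference beyond 0.12.

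Idi1, the isomerase that prepares the isoprenoid units for joining, had the largest difference of any member. Its signals were 8.44, 8.88 and 9.04 in OB-TUDCA, 9.40, 8.47 and 9.57 in OB-control, and 10.94, 10.18 and 9.43 in N-control livers. Every OB-TUDCA array lay below every N-control array, and OB-control overlapped both groups. The difference against N-control was -1.39 ± 0.39 for OB-TUDCA, 2.63-fold lower (adjusted p = 0.0934, range over alternatives 0.0458 to 0.388), and -1.04 ± 0.39 for OB-control livers, 2.05-fold lower (adjusted p = 0.314). Its 2 probe sets gave -1.44 and -1.34 in the first of these. Without N-control replicate 3 the difference of OB-TUDCA against N-control livers was -1.77.

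Fdps, which joins those units into farnesyl diphosphate, read 8.97, 9.51 and 9.35 in OB-TUDCA, 9.65, 8.37 and 9.38 in OB-control, and 10.53, 9.91 and 8.99 in N-control livers. The groups overlapped widely, and a difference of -0.68 ± 0.41 separated OB-control from N-control means (interval -1.59 to 0.24). Fdft1, the squalene synthase that commits farnesyl diphosphate to sterols, read 9.08, 8.96 and 9.41 in OB-TUDCA, 9.80, 9.45 and 9.43 in OB-control, and 10.49, 10.00 and 9.13 in N-control livers. OB-TUDCA arrays were all below OB-control arrays, though narrowly, and the mean difference was -0.41 ± 0.29. Against N-control livers it was -0.72 ± 0.29 (adjusted p = 0.227), with N-control replicate 3 as low as the treated mice.

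Sqle, the squalene epoxidase, was the member that varied most between mice. It read 7.56, 8.07 and 8.85 in OB-TUDCA, 8.08, 6.91 and 7.67 in OB-control, and 9.43, 8.16 and 7.08 in N-control livers. N-control mice alone spanned 2.35, a wider span than any of its group differences, and the interval of OB-TUDCA against OB-control ran from -0.65 to 1.86 around 0.60. Lss, which closes the ring to lanosterol, read 6.48, 6.81 and 7.26 in OB-TUDCA, 7.64, 7.25 and 7.45 in OB-control, and 8.13, 7.27 and 6.57 in N-control livers. OB-TUDCA replicate 3 just reached OB-control replicate 2, and the difference was -0.60 ± 0.35 (1.52-fold lower, adjusted p = 0.546).

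Cyp51, the demethylase of lanosterol, read 7.42, 7.96 and 8.37 in OB-TUDCA, 8.03, 7.14 and 7.88 in OB-control, and 9.33, 8.84 and 8.01 in N-control livers. OB-control replicate 1 was the only OB-control array to reach into the N-control range. The difference was -1.04 ± 0.36 in OB-control against N-control livers (2.06-fold lower, adjusted p = 0.275) and 0.23 ± 0.36 in OB-TUDCA against OB-control livers.

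Tm7sf2, a sterol reductase that acts on the product of Cyp51, had the largest positive difference of the members in OB-TUDCA against OB-control livers. That of Sqle was close, at 0.60, with a wider spread between mice. It read 10.01, 9.74 and 9.81 in OB-TUDCA, 9.18, 8.95 and 9.56 in OB-control, and 9.78, 9.53 and 9.53 in N-control livers. All OB-TUDCA arrays lay above all OB-control arrays. The difference was 0.62 ± 0.15, 1.54-fold higher in OB-TUDCA (unadjusted p = 0.00244, limma adjusted p = 0.12, range over alternatives 0.0753 to 0.661), with an interval of 0.28 to 0.96. OB-control differed from N-control livers by -0.38 ± 0.15 (adjusted p = 0.346).

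Msmo1, the oxidase that starts removal of the paired methyl groups, read 10.32, 10.57 and 11.01 in OB-TUDCA, 11.71, 10.98 and 10.78 in OB-control, and 12.45, 12.11 and 10.89 in N-control livers. A pair of N-control mice exceeded every ob/ob array, and N-control replicate 3 fell among the treated mice. The difference was -1.18 ± 0.39 in OB-TUDCA against N-control livers (2.27-fold lower, adjusted p = 0.147) and -1.65 without N-control replicate 3. Nsdhl, the dehydrogenase of the next step, read 8.93, 9.21 and 9.36 in OB-TUDCA, 9.72, 8.26 and 9.75 in OB-control, and 10.54, 10.05 and 9.25 in N-control livers. OB-control replicate 2 was its lowest array, and the groups overlapped. Hsd17b7, the ketosteroid reductase that ends the methyl removal, lay at 8.60 to 9.30 in OB-TUDCA, 8.74 to 9.48 in OB-control and 8.72 to 9.25 in N-control livers, and was the only synthesis gene whose mean in both ob/ob groups exceeded the lean mean.

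Ebp, the isomerase that moves a ring double bond, was the most even of the synthesis genes between mice. It averaged 9.34 ± 0.18 in OB-TUDCA, 9.17 ± 0.16 in OB-control and 9.66 ± 0.19 in N-control livers, and all OB-control arrays lay below all N-control arrays. The difference of OB-control against N-control livers was -0.49 ± 0.13 (interval -0.78 to -0.19, adjusted p = 0.15, range over alternatives 0.0364 to 0.539). Sc5d, the desaturase that follows, averaged 10.65 ± 0.12 in OB-TUDCA, 11.00 ± 0.24 in OB-control and 11.28 ± 0.43 in N-control livers. Its OB-TUDCA arrays lay below all other arrays, with differences of -0.35 ± 0.20 from OB-control and -0.63 ± 0.20 from N-control livers (adjusted p = 0.542 and 0.133). Dhcr7, the reductase that yields cholesterol itself, read 7.55, 7.56 and 7.93 in OB-TUDCA, 8.82, 7.72 and 8.62 in OB-control, and 9.02, 8.64 and 8.08 in N-control livers. OB-control replicate 2 kept the ob/ob groups from separating. The difference was -0.70 ± 0.30 against OB-control (adjusted p = 0.395) and -0.90 ± 0.30 against N-control livers (adjusted p = 0.157).

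The mean of all 17 synthesis genes was 8.30, 8.53 and 8.72 in OB-TUDCA, 8.98, 8.23 and 8.76 in OB-control, and 9.62, 9.13 and 8.49 in N-control livers. Group means were 8.52 ± 0.21, 8.66 ± 0.39 and 9.08 ± 0.57 in that order (SD, n = 3 each), and the arrays of the 3 groups overlapped. N-control replicate 1 had the highest of the 3 lean signals for 16 of 17 synthesis genes, all but Ebp, and N-control replicate 3 had the lowest for 17 of 17. Over all genes these shares were 35.3% and 35.2%. Within OB-control, replicate 1 was highest for 12 genes (34.4% of all genes) and replicate 2 lowest for 13 (30.8%). Within OB-TUDCA, replicate 3 was highest for 12 (29.1% of all genes) and replicate 1 lowest for 12 (34.1%). The genes of the pathway thus went up and down together from mouse to mouse, with Ebp and Tm7sf2 most often outside the pattern. What set the mice apart was not tested.

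**Figure D2:**
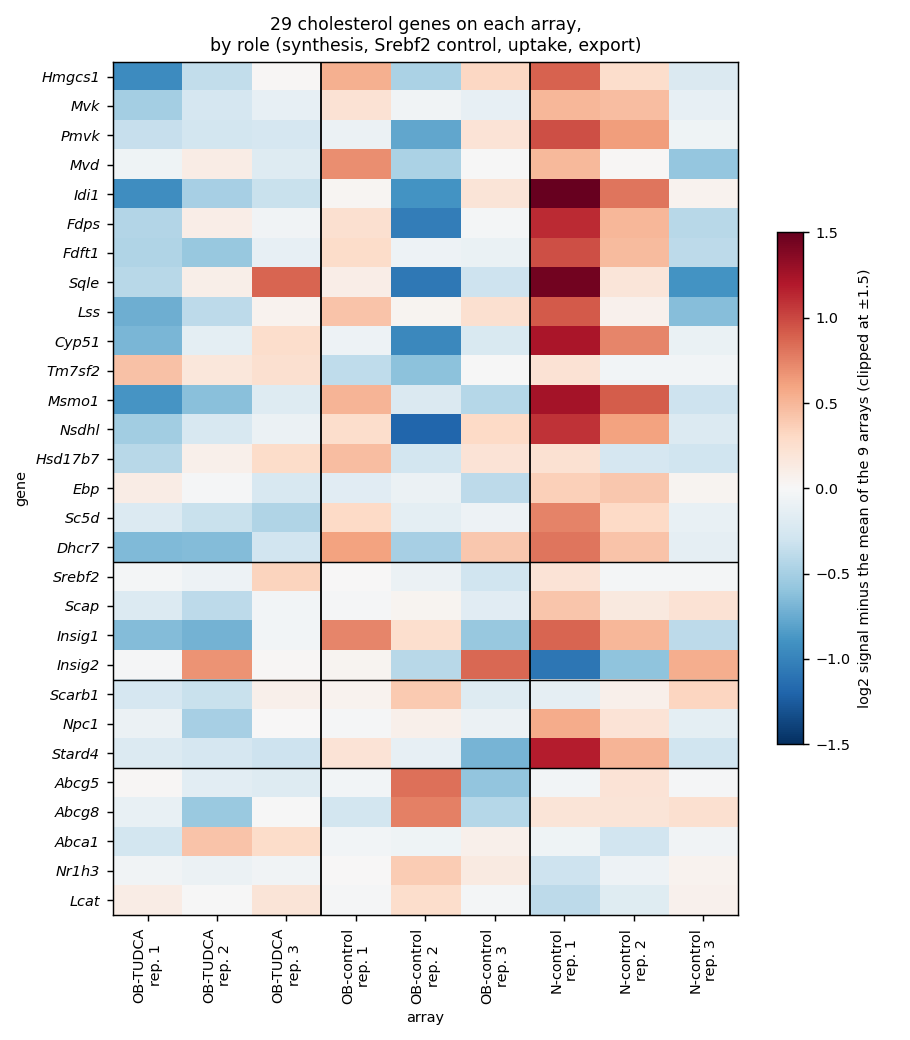
Heat map of the 29 genes (rows, by role) on the 9 arrays (columns, OB-TUDCA, OB-control and N-control from left to right). Colour is the log2 signal minus the mean of that gene over all arrays, clipped at 1.5 either way. N-control replicate 1 is red for nearly the whole synthesis block, and OB-control replicate 2 is blue for most of it.

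The pooled SD within groups had a median of 0.465 over the synthesis genes, against 0.137 over all genes, and 14 of 17 exceeded the 90th percentile of all genes. Sqle reached 0.848, at percentile 99.7, while Ebp (0.177) and Tm7sf2 (0.211) were nearer to the rest of the array. The median span of a synthesis gene within a group was 0.454 in OB-TUDCA, 0.936 in OB-control and 1.11 in N-control livers, beside 0.230, 0.222 and 0.201 over all genes in these groups. Spans of OB-TUDCA mice were thus the narrowest for synthesis genes but not for genes at large.

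The 15 measured genes of a lipogenic list were set beside them on the same arrays. It holds enzymes of fatty acid synthesis and also Srebf1 itself, Thrsp, Mid1ip1, Pklr, Pnpla3, Fads1 and Fads2. Their mean was 9.84, 9.59 and 9.23 in OB-TUDCA, 10.39, 9.17 and 10.13 in OB-control, and 10.24, 9.63 and 9.07 in N-control livers. In N-control livers replicate 1 was the highest array for 14 of these genes (35.3% of all genes) and replicate 3 the lowest for 12 (35.2%), as for cholesterol synthesis. OB-control livers also shared an order, with replicate 1 highest for 9 (34.4% of all genes) and replicate 2 lowest for 13 (30.8%). In OB-TUDCA livers the orders were opposite. Replicate 1 was highest for 10 lipogenic genes but lowest for 12 cholesterol genes, and replicate 3 lowest for 11 but highest for 12. Over all genes, replicate 1 was the highest OB-TUDCA array for 37.7% and replicate 3 the lowest for 35.4%. With 3 mice a group this is a description and was not tested.

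**Figure D3:**
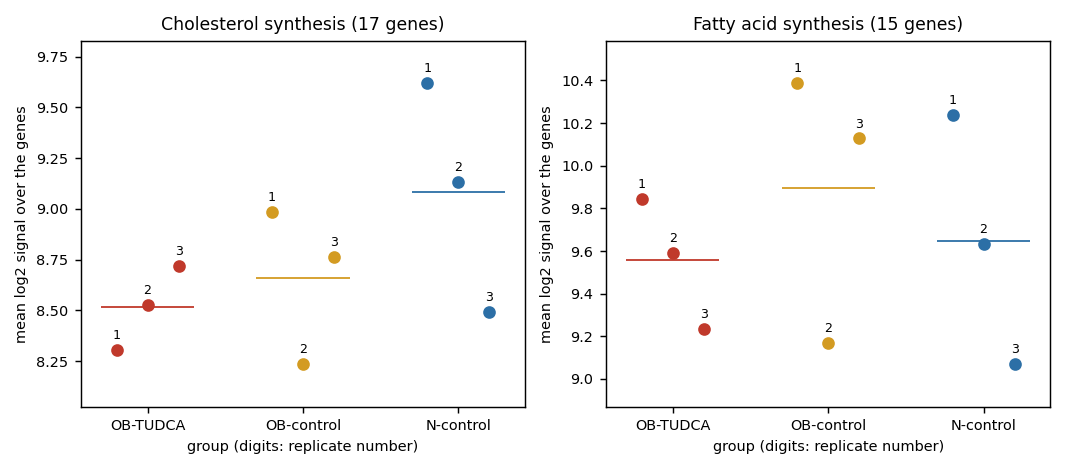
Mean log2 signal over the 17 cholesterol synthesis genes (left) and the 15 genes of the lipogenic list (right, titled fatty acid synthesis) on each array. Points carry their replicate number, and a line is the group mean. Replicate 1 is highest and replicate 3 lowest in N-control livers in both panels, while OB-TUDCA replicates 1 and 3 change places between the panels.

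Srebf2 itself, the factor that turns these genes on, read 7.70, 7.65 and 8.06 in OB-TUDCA, 7.73, 7.64 and 7.43 in OB-control, and 7.93, 7.70 and 7.70 in N-control livers. The groups overlapped, with differences of 0.21 ± 0.13 in OB-TUDCA against OB-control and 0.03 ± 0.13 in OB-TUDCA against N-control livers. Its RNA level says nothing of how much of the protein is cut and active, which these arrays do not measure.

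Scap, the escort of Srebf2, averaged 8.12 ± 0.18 in OB-TUDCA, 8.28 ± 0.11 in OB-control and 8.59 ± 0.14 in N-control livers, and both ob/ob groups lay wholly below the lean arrays. Among the members it had the smallest p in any comparison. The difference was -0.47 ± 0.11 in OB-TUDCA against N-control livers, 1.39-fold lower (interval -0.72 to -0.22, adjusted p = 0.0591, range over alternatives 0.035 to 0.327). OB-control differed from N-control livers by -0.30 ± 0.11 (adjusted p = 0.31).

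Insig1, which retains Scap and is itself a target of Srebf2, read 9.84, 9.78 and 10.44 in OB-TUDCA, 11.22, 10.74 and 9.92 in OB-control, and 11.36, 10.99 and 10.09 in N-control livers. OB-control replicate 3 and N-control replicate 3 fell into the OB-TUDCA range. The difference was -0.61 ± 0.38 in OB-TUDCA against OB-control (interval -1.47 to 0.25) and -0.79 ± 0.38 against N-control livers (interval -1.65 to 0.06). Insig2, its relative, which in liver rises on fasting and is lowered by insulin, read 11.09, 11.78 and 11.12 in OB-TUDCA, 11.15, 10.69 and 11.97 in OB-control, and 10.02, 10.50 and 11.65 in N-control livers. Its lean mice ran in the opposite order to the synthesis genes, with replicate 1 lowest and replicate 3 highest. Of the 29 members, 19 had N-control replicate 1 above 2 above 3 (13.8% of all genes) and 5 had the reverse, Insig2, Scarb1, Abcg8, Nr1h3 and Lcat (15.5% of all genes). Insig2 differed by 0.55 ± 0.43 in OB-control and 0.61 ± 0.43 in OB-TUDCA against N-control livers, within its spread.

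Scarb1, the HDL receptor that takes up cholesteryl esters, read 9.33, 9.25 and 9.65 in OB-TUDCA, 9.63, 9.97 and 9.39 in OB-control, and 9.44, 9.65 and 9.90 in N-control livers. The groups overlapped, and OB-TUDCA differed by -0.26 ± 0.17 from OB-control and by -0.26 ± 0.17 from N-control livers (adjusted p = 0.611 and 0.479). Npc1, which lets cholesterol out of the lysosome, averaged 9.24 ± 0.27 in OB-TUDCA, 9.43 ± 0.08 in OB-control and 9.64 ± 0.35 in N-control livers.

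Stard4, a carrier of sterol between membranes and a known target of Srebf2, read 7.88, 7.83 and 7.78 in OB-TUDCA, 8.29, 7.96 and 7.39 in OB-control, and 9.27, 8.60 and 7.79 in N-control livers. It behaved like the synthesis genes in lean mice, with replicate 1 far above replicate 3, and was nearly level among the treated mice. The differences against N-control livers were -0.73 ± 0.33 for OB-TUDCA (interval -1.48 to 0.03) and -0.68 ± 0.33 for OB-control (interval -1.43 to 0.08).

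Abcg5 and Abcg8 form the transporter that moves cholesterol into bile, and their genes lie head to head over the promoter printed above. Abcg5 read 9.43, 9.26 and 9.22 in OB-TUDCA, 9.37, 10.24 and 8.82 in OB-control, and 9.37, 9.62 and 9.39 in N-control livers. Abcg8 read 8.55, 8.10 and 8.66 in OB-TUDCA, 8.39, 9.42 and 8.23 in OB-control, and 8.85, 8.86 and 8.90 in N-control livers. Both were highest on OB-control replicate 2, the OB-control array where most synthesis genes were lowest, and lowest among OB-control mice on replicate 3. OB-TUDCA arrays of Abcg8 were all below N-control arrays, by a mean of -0.44 ± 0.28 (adjusted p = 0.451), and the other differences of this pair did not exceed 0.24 either way.

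Abca1, which loads cholesterol onto apolipoprotein A-I to form HDL, read 9.01, 9.71 and 9.56 in OB-TUDCA, 9.24, 9.21 and 9.36 in OB-control, and 9.21, 8.99 and 9.23 in N-control livers. OB-TUDCA replicates 2 and 3 exceeded every other array, and replicate 1 was nearly the lowest. The mean of all 8 listed macrophage markers was 7.03, 7.66 and 7.66 in OB-TUDCA, 6.98 to 7.32 in OB-control and 6.98 to 7.27 in N-control livers, highest on the same arrays as Abca1, and its part was not tested. The difference was 0.28 ± 0.16 in OB-TUDCA against N-control livers (adjusted p = 0.407). Nr1h3, the LXR alpha receptor, read 8.27, 8.24 and 8.27 in OB-TUDCA, 8.33, 8.71 and 8.46 in OB-control, and 8.02, 8.25 and 8.38 in N-control livers. OB-control arrays were all above OB-TUDCA arrays and overlapped N-control arrays. It differed by 0.28 ± 0.12 in OB-control against N-control livers (adjusted p = 0.368) and by -0.24 ± 0.12 in OB-TUDCA against OB-control livers (adjusted p = 0.457). Lcat, the plasma enzyme that esterifies the cholesterol of HDL, averaged 10.86 ± 0.11 in OB-TUDCA, 10.83 ± 0.17 in OB-control and 10.59 ± 0.22 in N-control livers.

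**Figure D4:**
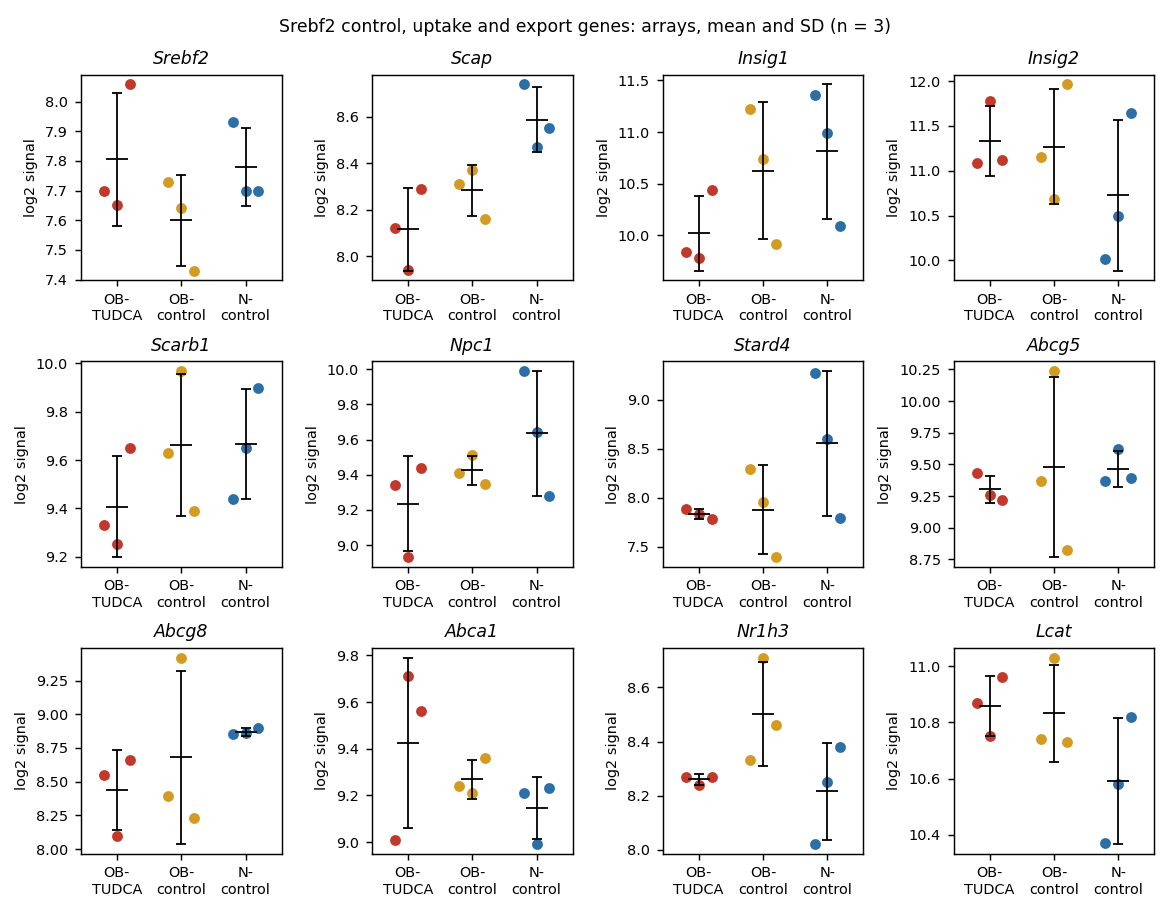
Log2 signal of the 12 genes of Srebf2 control, uptake and export in OB-TUDCA, OB-control and N-control livers. Points are arrays, and bars are mean and SD over 3 mice, on an axis scaled to each gene. Scap shows lean arrays above all others, while Abcg5 and Abcg8 share a high OB-control replicate 2.

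Further genes of the pathway were read from lists by role. Of 8 measured genes of 12 listed that flank synthesis or use its isoprenoids, limma called 0 in each comparison, with 1, 2 and 1 at an unadjusted p under 0.05 in OB-TUDCA against OB-control, OB-control against N-control and OB-TUDCA against N-control livers. Aacs, which feeds ketone bodies into sterol synthesis, had the largest positive difference in each comparison, at 0.79 ± 0.49, 0.28 ± 0.49 and 1.08 ± 0.49. Erg28, a scaffold of the enzymes that remove methyl groups, had the largest negative ones against N-control livers, at -0.48 ± 0.18 for OB-control and -0.63 ± 0.18 for OB-TUDCA livers. Lbr, the lamin B receptor, which is also a sterol reductase of the same step as Tm7sf2, differed by 0.25 in OB-TUDCA against OB-control and by -0.35 in OB-control against N-control livers, the same signs as Tm7sf2, and neither difference passed after adjustment. Dhdds, which makes dolichol precursors, had the lowest against OB-control livers, at -0.15 ± 0.08.

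Of 8 measured genes of 10 listed for sterol sensing, limma again called 0 in each comparison, with 1, 1 and 3 at an unadjusted p under 0.05. Srebf1, the relative of Srebf2 that drives fatty acid synthesis, differed by -1.03 ± 0.35 in OB-TUDCA against OB-control (adjusted p = 0.263) and by 0.66 ± 0.35 in OB-control against N-control livers. The highest value against OB-control and against N-control livers was that of Paqr3 in OB-TUDCA mice, at 0.14 ± 0.09 and 0.29 ± 0.09. This protein anchors the Scap complex at the Golgi. The lowest against N-control livers were those of Rnf139 in OB-control (-0.28 ± 0.09) and Erlin1 in OB-TUDCA mice (-0.64 ± 0.20), both of them proteins of the endoplasmic reticulum that take part in protein breakdown there. Rnf139 was also lower in OB-TUDCA than in N-control livers at an unadjusted p under 0.05 (-0.20 ± 0.09).

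Calls appeared among genes of lipid uptake and trafficking, 15 measured of 17 listed. Limma called 0 in OB-TUDCA against OB-control livers (0.301% of all genes called), with 0 at an unadjusted p under 0.05. The extremes were Pltp, the phospholipid transfer protein (0.57 ± 0.47), and Sort1 (-0.25 ± 0.22). Pltp read 8.13 on OB-control replicate 2 and 9.88 to 10.34 on the other ob/ob arrays, and leaving out 1 array at a time moved its difference between -0.12, without that array, and 0.98. In OB-control against N-control livers 2 rose, the fatty acid transporter Cd36 by 1.70 ± 0.21 (adjusted p = 0.00802) and the lipoprotein receptor Vldlr by 1.26 ± 0.16 (adjusted p = 0.00887). The sorting receptor Sort1 fell by 1.27 (SE 0.22, adjusted p = 0.0353). The same 3 were called in OB-TUDCA against N-control livers, with Cd36 at 1.74 ± 0.21, Vldlr at 1.45 ± 0.16 and Sort1 at -1.52 ± 0.22 (adjusted p = 0.00459, 0.00318 and 0.0093). Without N-control replicate 2 the OB-control differences were 1.64 for Cd36 and 1.13 for Vldlr, both still called (adjusted p = 0.0458 and 0.041), and -1.24 for Sort1, no longer called (adjusted p = 0.128). Sort1 lost this call with 8 of the 9 arrays left out in turn, all but OB-control replicate 3 (adjusted p 0.0262 to 0.139), and Vldlr lost it without N-control replicate 1 (adjusted p = 0.0511). In OB-TUDCA against N-control livers all 3 kept their calls with each array left out in turn. None of the 3 is a member of the 31, and their arrays did not overlap between lean and ob/ob mice. Over all genes, 0.948% were called in OB-control and 3.24% in OB-TUDCA against N-control livers. At an unadjusted p under 0.05, 3 genes of the list were higher and 1 lower in each of these. Beside the called genes these were Stard5 for OB-control (0.26 ± 0.10) and Npc2 for OB-TUDCA livers (0.20 ± 0.08).

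Of 6 measured genes of 8 listed for efflux, LXR and ester handling, limma called 0 in each comparison, with 2 at an unadjusted p under 0.05 in each. Lpcat3, an LXR target that remodels phospholipids, differed by -0.54 ± 0.11 in OB-TUDCA against OB-control (adjusted p = 0.086) and by 0.28 ± 0.11 in OB-control against N-control livers. Apoa1, the main protein of HDL, differed by 0.43 ± 0.09 in OB-TUDCA against OB-control (adjusted p = 0.0953) and by -0.49 ± 0.09 in OB-control against N-control livers (adjusted p = 0.0528). Cel, an ester hydrolase of the pancreas, read 10.51 on N-control replicate 2 and 3.10 to 4.01 on all other arrays, so its differences are those of that array. Abcg1, another LXR target that exports cholesterol, differed by 0.33 ± 0.11 in OB-TUDCA against N-control livers (adjusted p = 0.157).

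Conversion to bile acids, the main route by which liver disposes of cholesterol, held the largest differences. All 9 listed genes were measured. Limma called 1 higher in OB-TUDCA against OB-control livers (0.301% of all genes called). It called 1 lower in OB-control against N-control (0.948%) and 3 lower in OB-TUDCA against N-control livers (3.24%). At an unadjusted p under 0.05, 2 were higher (6.26% of all genes) and 2 lower (5.72%) in the first of these. In the second 4 were lower (5.59%), and in the third 1 was higher (10.4%) and 5 were lower (8.15%). Cyp39a1, an oxysterol hydroxylase, read 9.89, 9.67 and 9.98 in OB-TUDCA, 8.60, 8.89 and 8.44 in OB-control, and 9.41, 9.26 and 9.13 in N-control livers. It was the only one called in OB-TUDCA against OB-control livers, at 1.20 ± 0.13 (2.30-fold higher, adjusted p = 0.0192). With 4 of the 9 arrays left out in turn the call was lost (adjusted p 0.0545 to 0.125): replicates 2 and 3 of OB-TUDCA, the first of OB-control and the second of N-control. The call was also lost with only the 2 groups compared, and with the mean of the acinar markers as a covariate. In both of these fits, and in the 4 fits above that lost the call, limma called 0 of all genes in this comparison. Cyp7b1, the hydroxylase of the acidic route, read 7.31, 6.63 and 6.65 in OB-TUDCA, 6.82, 7.46 and 7.01 in OB-control, and 9.93, 10.38 and 10.64 in N-control livers. It was 9.29-fold lower in OB-control than in N-control livers (-3.22 ± 0.24, adjusted p = 0.000485) and differed by -3.45 ± 0.24 in OB-TUDCA against N-control livers (adjusted p = 0.000284). Without N-control replicate 2 these were -3.18 and -3.42, both called (adjusted p = 0.00377 and 0.00386).

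Cyp7a1, the rate-limiting enzyme of the classic route, read 8.54, 7.71 and 6.44 in OB-TUDCA, 9.09, 8.86 and 10.54 in OB-control, and 10.17, 11.03 and 10.03 in N-control livers. It fell in OB-TUDCA against N-control livers (-2.85 ± 0.57, adjusted p = 0.0297), and its difference of -1.93 ± 0.57 against OB-control livers did not pass (adjusted p = 0.198), although those arrays did not overlap. The call against N-control livers was lost with 6 of the 9 arrays left out in turn, each N-control array, OB-control replicate 1 and OB-TUDCA replicates 2 and 3, with a difference of -2.54 and an adjusted p of 0.103 without N-control replicate 2. Hsd3b7, which acts on the products of both routes, also fell in OB-TUDCA against N-control livers (-1.03 ± 0.14, adjusted p = 0.0066), and differed by -0.75 ± 0.14 in OB-TUDCA against OB-control livers (adjusted p = 0.0637). The Hsd3b7 call held with each array left out in turn (adjusted p 0.00516 to 0.0318). These 4 genes are not members of the 31.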

How the data were processed

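The authors summarized scans of Affymetrix Mouse Gene 1.0 ST arrays with RMA in Expression Console (version not given in the sources used here) and deposited log2 signals per probe set. RMA corrects background and equalizes the arrays' distributions, which can shrink differences. Arrays have no read depth. Of 35556 probe sets, 21789 with exactly 1 symbol were averaged per symbol, and 1621 with several and 12146 unnamed ones were left out. Without a filter, 19938 genes were fitted in R 4.3.3 with limma 3.58.1 (lmFit and eBayes, 3 group means over all 9 arrays, 6 residual and 3.33 prior degrees of freedom), two-sided, and p-values were adjusted by Benjamini-Hochberg across these genes (threshold 0.05). The fit was tested on simulated data. Figures used Python 3.11.15 and matplotlib 3.10.9. Per the labels the arrays are separate biological replicates. The members and lists were chosen with earlier results of these data known. Every member is named. All arrays are printed for the 8 largest differences of each comparison and for 8 fixed members. Of other pathway genes, those past the threshold or, where none passed, the extremes are named. Lbr and Apoa1 lie outside that rule and were added after their values were seen. The alternatives are those of the closing section.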

Additional observations from a re-analysis of the deposited data

How the results depend on the processing

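With 3 mice a group and wide spread between mice, the intervals of the synthesis genes were wide. Main counts of members called were 0 in all 3 comparisons. Limma after quantile normalization once more, subtraction of array medians, a trended robust prior and single probe sets also gave 0. The first 3 of these called 0.356% to 0.487%, 0.948% to 1.08% and 3.25% to 3.68% of all genes in these comparisons. Only the groups compared and the acinar mean as a covariate gave 0 members too. In OB-TUDCA against OB-control livers both of these fits called 0 of all genes, so their 0 members say nothing there. They called 0.326% and 0.361% of all genes in OB-control against N-control, and 1.73% and 1.65% in OB-TUDCA against N-control livers. In OB-TUDCA against N-control livers, leaving out the third of all genes that had the least signal gave 1 (Scap, adjusted p = 0.0437, 5.89% of genes called) and array weights gave 2 (Idi1, 0.0458, and Scap, 0.035, 4.25% of genes). The methods' t-test at P under 0.05 gave 1 in OB-TUDCA against OB-control (Tm7sf2), 2 in OB-control against N-control (Ebp and Scap) and 3 in OB-TUDCA against N-control livers (Dhcr7, Idi1 and Scap), beside 7.12%, 8.28% and 12.1% of all genes, and 0 after Benjamini-Hochberg. A fold of at least 1.5 without a test gave 5, 8 and 12, beside 2.41%, 2.81% and 4.77% of all genes. Leaving out each array in turn gave 0 to 0, 0 to 0 and 0 to 5 members called in these comparisons, in the same order. These fits called 0% to 0.677%, 0.301% to 1.33% and 0.968% to 3.95% of all genes. Median differences were then -0.25 to -0.15, -0.44 to -0.065 and -0.64 to -0.37. Members with arrays apart numbered 5 to 13, 2 to 17 and 7 to 20. Beside them stood 13.8% to 25%, 15.3% to 26.5% and 20.7% to 33.3% of all genes. With array medians subtracted, members apart numbered 2 instead of 5 in OB-TUDCA against OB-control livers (17.4% instead of 13.8% of all genes). In OB-control against N-control livers they numbered 4 instead of 2 (16.4% instead of 15.3% of all genes). Quantile normalization once more also gave 4 there (18.3% of all genes). Of 324 alternatives to the 18 single differences at an unadjusted p under 0.05, 314 kept direction and side, 10 passed the threshold and 0 changed sign. Of the 69 other differences, 24 changed sign in at least 1 alternative, the largest of them 0.244. With motifs read on the strand of the gene alone, the NF-Y box stood in 9 of 24 members (37.5%) instead of 20, and in 23.7% instead of 41.1% of all genes. Chosen after seeing the data, each array was left out for the pathway genes outside the list: the difference of Pltp in OB-TUDCA against OB-control livers, 0.57, ran between -0.12 (without OB-control replicate 2) and 0.98. The cause of these changes was not tested, except that fewer genes or arrays entered some fits.

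Replicate numbers do not pair the mice by any source used here. Same-number deviations correlated at -0.075 to 0.209 over 9 pairs, 4 of them over 0.1. Other-number pairs ran from -0.3 to 0.231, so the highest pair of all had different numbers (OB-control replicate 2 and OB-TUDCA replicate 1). Of 9 arrays, 7 correlated best with an array of their own number, a weak hint from the data alone. OB-TUDCA replicate 2 is among the 7, although its value was 0.086 with both N-control replicate 2 and OB-control replicate 3. With the replicate number as a block, 0 members were called in OB-TUDCA against OB-control livers (0.301% of all genes called). In OB-control against N-control livers 1 was called (Ebp, adjusted p = 0.0364, 0.948% of all genes called). In OB-TUDCA against N-control livers 1 was called (Sc5d, adjusted p = 0.0377, 4.37% of all genes). The block left the median differences at -0.17, -0.21 and -0.47.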
